A study of Saccharomyces cerevisiae with 7 samples.

Results

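Occupancy of RNA polymerase II (RNAPII) in yeast cells that lack the exosome nuclease Rrp6 (*rrp6Δ*) was compared with that in wild-type (WT) cells by chromatin immunoprecipitation and sequencing (ChIP-seq). The comparison uses 4 of the 7 samples of the series, 2 immunoprecipitated (IP) libraries from each genotype, which the authors deposited as 1 combined track per genotype. The strains are isogenic, in the W303 background by the study's methods, and were taken asynchronous in log phase from rich medium with glucose. Chromatin was crosslinked with formaldehyde, cut with micrococcal nuclease and immunoprecipitated for the C-terminal domain of the largest RNAPII subunit. The remaining samples are 2 IP libraries of *rtt109Δ*, which lacks the acetyltransferase for lysine 56 of histone H3, and 1 input library that divides all 3 tracks.

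A value is the ratio of IP to input in a window of 100 bp, placed every 50 bp, and the median window of each track is exactly 1. A change of RNAPII shared by the whole genome is therefore not seen in these ratios. The replicates are already combined, so no value below has a replicate error and no p-value was possible. The *rtt109Δ* track is given beside many values as a further measurement with the same input. ORFs and RNA genes were taken from the R64 annotation, and a gene was called lower or higher when the mean of its windows differed by more than 1.3-fold, the limit of the study.

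The nuclear exosome is a ring of proteins with a processive nuclease, to which Rrp6 adds a second nuclease found only in the nucleus. It trims the precursors of ribosomal RNA and of small nucleolar RNAs (snoRNAs), and it degrades cryptic unstable transcripts soon after they are made. Short RNAPII transcripts reach it through the RNA-binding proteins Nrd1 and Nab3 and the helicase Sen1, which end transcription, and through the TRAMP complex, which adds a short tail of adenosines. The exosome acts on RNA, whereas the tracks measure the polymerase on DNA.

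The track labelled *rrp6Δ* was near 0 over the deleted gene. RRP6 (YOR001W, chromosome XV, 326832 to 329033) had a mean ratio of 0.118 in *rrp6Δ*, beside 1.01 in WT and 1.08 in *rtt109Δ*. Of its 44 windows, 40 were under 0.05 in *rrp6Δ* and 23 of these were at 0, whereas no window of the ORF was under 0.459 in WT. The windows under 0.05 lay from 68 to 2018 bp after the start codon, and the 3 windows after them had a mean of 1.53 in *rrp6Δ* and 1.39 in WT. PHO80, which encodes the cyclin of the phosphate pathway and lies before RRP6, had 1.35 in WT and 1.28 in *rrp6Δ*. ALG6, a glucosyltransferase gene on the other side, had 1.14 and 1.09.

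**Figure D1:**
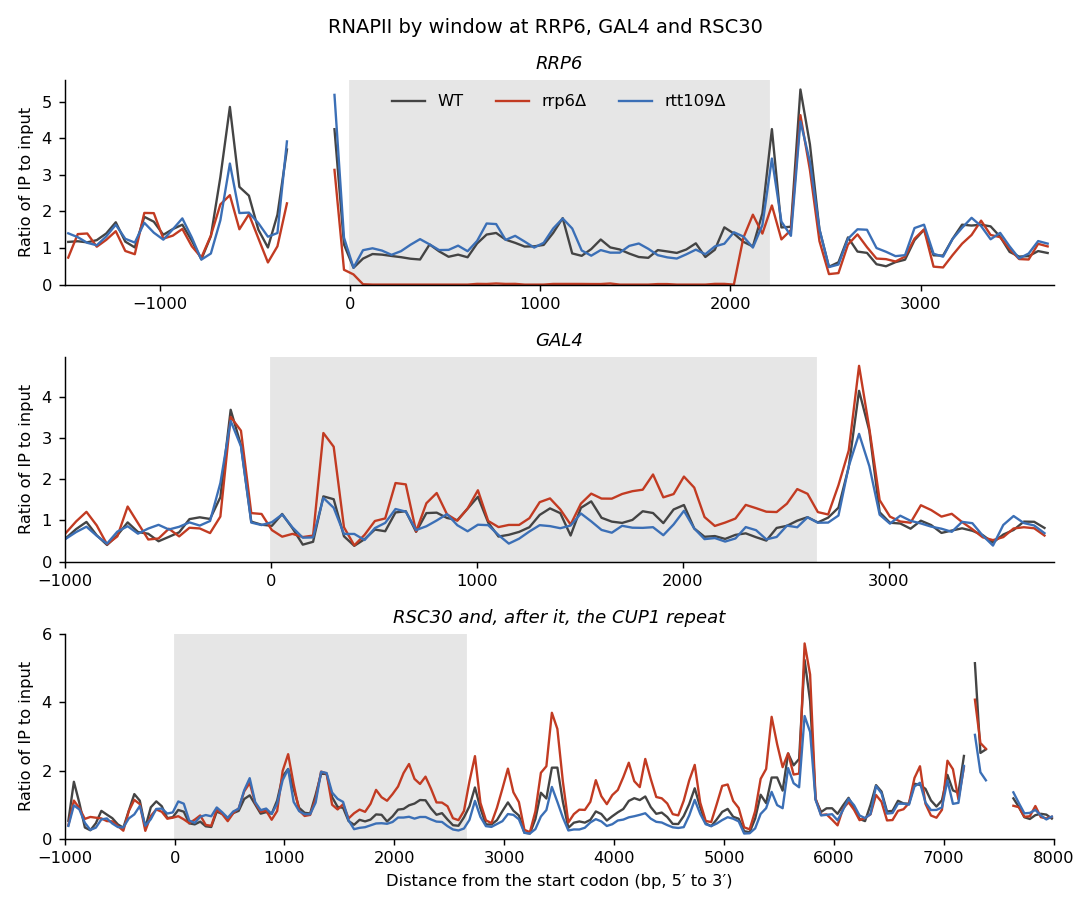
Ratio of IP to input in single windows (vertical axis) by distance from the start codon in bp (horizontal axis) for WT, *rrp6Δ* and *rtt109Δ*, with the ORF named in each title shaded; lines are broken where the tracks hold no window. In *rrp6Δ* the ratio is under 0.05 in 40 of 44 windows of RRP6, is above WT over GAL4 (1.32 against 0.942), and is above WT over the last part of RSC30 and the repeat that follows it.

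The tracks hold 228888 windows on 15 chromosomes, and chromosome IX was not analysed here. Values were obtained for 5781 of 6002 nuclear ORFs, with a median of 24 windows each. Of the ORFs without a value 214 are on chromosome IX and 7 are elsewhere. The tracks hold 99.7% of the windows of a full grid over these ORFs, but 92.2% over the 300 bp after the stop codon, where 4346 regions had all 6 windows and 92 had fewer than 3. The depth of the libraries is unknown. Genes that are strongly transcribed in glucose did not stand out as high in these ratios. The median ORF had 0.974 in WT, glycolytic and fermentation genes had a median of 0.634, cytosolic ribosomal protein genes 0.82, and meiotic genes, which are repressed in these conditions, 1.17.

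Over ORFs, *rrp6Δ* and WT differed little. On the log2 scale the ratio of *rrp6Δ* to WT had a median of 0.0081, whose sign turned with the scaling of the tracks (-0.0043 with each track divided by its median ORF value), and 90% of ORFs fell between -0.26 and 0.23. Among the 5781 ORFs, 105 were lower in *rrp6Δ* by more than 1.3-fold (1.82%) and 41 were higher (0.709%), while 47.4% were below 0 at any size. In *rtt109Δ* 551 ORFs were lower and 505 were higher by the same limit. The called ORFs were short. Those lower in *rrp6Δ* had a median length of 381 bp and those higher 615 bp, against 1206 bp over all ORFs. A short ORF is averaged over few windows, and 35 of the 105 lower and 22 of the 41 higher had at least 10 windows. Of the 105 lower ORFs, 40 (38.1%) had only a systematic name, as had 13 of the 41 higher (31.7%) and 12.4% of all ORFs.

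The median log2 ratio went with the length of the ORF. It was -0.069 in the 724 ORFs of up to 450 bp, -0.0033 in the 719 ORFs of 1209 to 1494 bp and 0.061 in the 723 ORFs of 2590 bp or more. Of the 105 lower ORFs, 65 were in the shortest of these groups and none in the longest. In *rtt109Δ* the shortest and longest groups had medians of -0.031 and -0.0088.

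Among the ORFs farthest below WT were several named genes of low WT ratio. SHR5, which encodes a subunit of the palmitoyltransferase of Ras proteins, had 0.572 in WT, 0.269 in *rrp6Δ* and 0.477 in *rtt109Δ*. UTR5 had 0.681, 0.328 and 0.745, and SCS3, a gene of lipid droplet formation, had 0.535, 0.27 and 0.39. RRN5, a subunit of the upstream factor of RNA polymerase I, had 0.431, 0.24 and 0.464. PHO4, the transcription factor of the phosphate pathway, had 0.523, 0.329 and 0.434. These 5 ORFs had WT ratios below the median ORF, and *rrp6Δ* was the lowest of the 3 tracks in each. A low WT ratio was common to both sets of called ORFs, with medians of 0.718 in the 105 lower and 0.723 in the 41 higher. Over all 105 lower ORFs, *rrp6Δ* was the lowest of the 3 tracks in 97 (92.4%), beside 27.2% of all ORFs. The 105 ORFs, with the 5 named, were chosen as lower than WT, so only the place of *rtt109Δ* was free in this order.

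The signal after the stop codon was larger than that in the ORF in all 3 tracks, and it was a little lower in *rrp6Δ* than in WT. Over the 300 bp downstream WT had a median ratio of 1.94, *rrp6Δ* one of 1.89 and *rtt109Δ* one of 1.61. The log2 ratio to WT of *rrp6Δ* had a median of -0.045 over 5772 regions, with the middle 50% between -0.17 and 0.078. Downstream regions lower by more than 1.3-fold numbered 248 (4.3%), those higher numbered 91 (1.58%), and 59.4% were below 0. In *rtt109Δ* the median was -0.26 and 2143 downstream regions were lower. The difference between the downstream and the ORF log2 ratio of the same gene had a median of -0.045 in *rrp6Δ*. There were 27 ORFs called lower both in the ORF and downstream, which is 25.7% of the ORF calls and 10.9% of the downstream calls, beside 4.3% of all downstream regions called lower. For calls of higher signal the overlap was 10 ORFs, 24.4% and 11% of the calls, beside 1.58% of all downstream regions.

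Upstream of the start codon the shift was larger. Over the 300 bp before the start the median log2 ratio was -0.084, 298 regions were lower and 47 were higher. Averaged over positions, ORFs of at least 1000 bp gave a wave of small differences. The median log2 ratio was -0.22 at 300 bp before the start codon, -0.052 at 100 bp before it, -0.14 at the start codon and 0.12 at 250 bp after it. Before the stop codon it was 0.21 at 300 bp and -0.037 at 100 bp. At 50 and 100 bp after the stop codon, where the signal was highest, WT and *rrp6Δ* were alike, with mean ratios of 2.78 and 2.81 at 50 bp and a median log2 ratio of -0.0021. The median was -0.12 at 250 bp and 0.078 at 500 bp after the stop. At 300 bp before the start 30.2% of the 3373 ORFs with a window there were over 1.3-fold lower and 3.17% were higher. At 300 bp before the stop 3.66% of 3469 ORFs were lower and 28.1% were higher. Among single windows of the whole genome, 13.8% were lower and 11% were higher.

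These shifts had the same sign on every chromosome. The chromosomes are parts of the same combined tracks and are not replicates. The 15 chromosome medians lay between -0.26 and -0.16 at 300 bp before the start, between 0.084 and 0.22 at 250 bp after it, between 0.18 and 0.31 at 300 bp before the stop and between -0.17 and -0.084 at 250 bp after it. The *rtt109Δ* track had another shape. Its median was -0.034 at 300 bp before the start, -0.080 at 300 bp before the stop, and its lowest value was -0.30 at 50 bp after the stop.

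**Figure D2:**
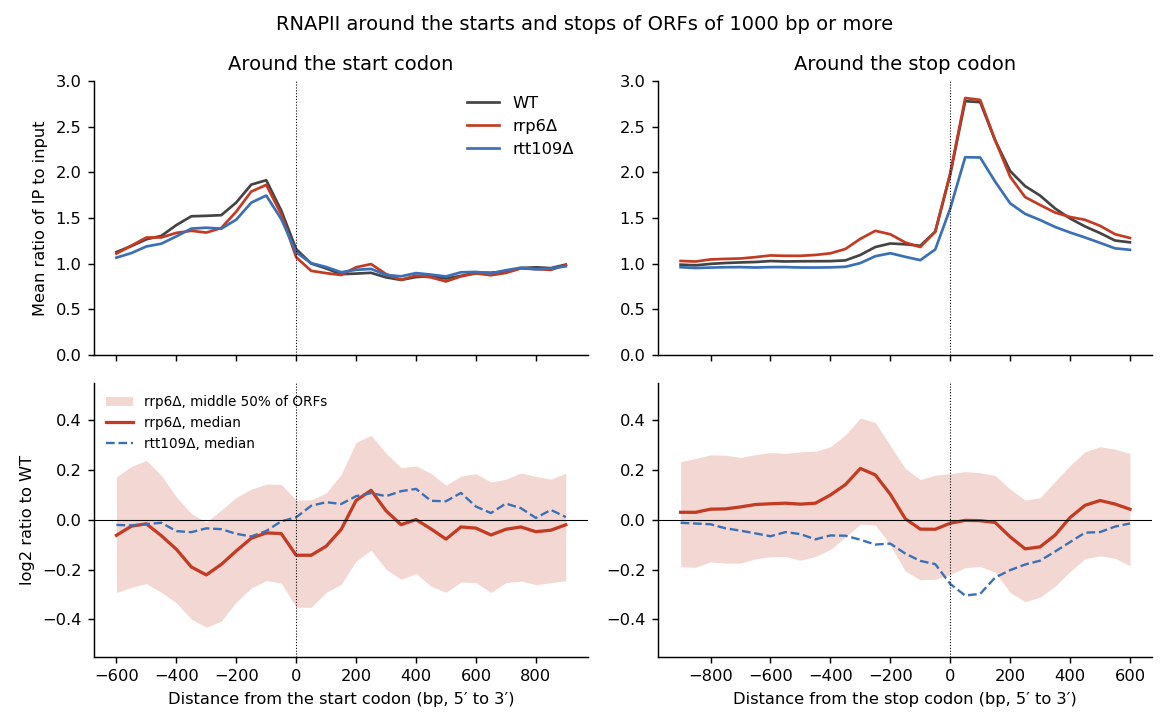
Mean ratio of IP to input (upper row) and log2 ratio to WT (lower row) by distance from the start codon (left) and the stop codon (right), for ORFs of at least 1000 bp; the shaded band is the middle 50% of ORFs for *rrp6Δ*. The *rrp6Δ* median is lowest at 300 bp before the start (-0.22) and highest at 300 bp before the stop (0.21), whereas WT and *rrp6Δ* overlap at the peak 50 bp after the stop (2.78 and 2.81).

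The downstream value depended on the neighbour. Genes whose next ORF is convergent, so that the region holds the ends of both, had a median downstream log2 ratio of -0.0050 (2961 genes). Genes followed by a tandem ORF, where the region holds an end and a promoter, had -0.083 (2799 genes). At gaps from 150 to under 300 bp the medians were 0.022 for convergent and -0.065 for tandem genes, and at gaps from 300 to under 500 bp they were -0.057 and -0.11. Members of a convergent pair share their downstream windows and are not independent. The split was the reverse of that in *rtt109Δ*, where convergent genes had -0.36 and tandem genes -0.16. Windows between genes followed the same order in *rrp6Δ*. Between divergent ORFs, where both ends are promoters, the median was -0.13 and 22.5% of 19640 windows were over 1.3-fold lower. Between tandem ORFs it was -0.10 with 18.3% lower, and between convergent ORFs it was -0.029 with 11.1% lower.

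Genes with a clear change downstream were sought among named genes whose downstream region overlaps no other gene, has at least 5 windows, reaches the level of the median region and differs in the same direction in every window. There were 215 such genes, 30 above WT and 185 below, while 59.4% of all downstream regions were below 0. At gaps from 300 to under 500 bp 65.9% of convergent and 72.5% of tandem genes were below 0. At gaps of 500 bp or more these shares were 58.8% and 66.6%. Neighbouring windows overlap, so their agreement is not independent. The largest difference upward was downstream of CSF1, a gene of lipid transfer, with 2.60 in WT, 3.57 in *rrp6Δ* and 2.87 in *rtt109Δ* (log2 ratio 0.46). SMC4, a condensin subunit, is the convergent neighbour of CSF1 across 355 bp and shares its region, with 2.48, 3.24 and 2.52. PAN2, a subunit of the poly(A) ribonuclease of the cytoplasm, had 2.45 in WT, 3.23 in *rrp6Δ* and 2.14 in *rtt109Δ*. In these 3 genes, chosen as above WT, *rrp6Δ* was also above *rtt109Δ*, and the ORF of PAN2 itself had a log2 ratio of -0.019.

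The other genes with the largest differences upward downstream were LDB19, an arrestin-related adaptor (0.37), TAF1, the largest subunit of TFIID (0.33), ADR1, an activator of glucose-repressed genes (0.33), INO2, an activator of phospholipid synthesis (0.28), LAF1 (0.28), SEC21, a subunit of the COPI coat (0.28), and MTC5, of the SEA complex (0.27). Of these 10 genes, 6 have a convergent and 4 a tandem neighbour.

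The largest difference downward was downstream of CTR1, the copper transporter of the plasma membrane, with 2.50 in WT, 1.59 in *rrp6Δ* and 2.14 in *rtt109Δ* (log2 ratio -0.65). PRY2, a sterol-binding protein, had 1.96, 1.26 and 1.21. PHO80, which lies 701 bp before the deleted RRP6, had 2.57, 1.66 and 2.00. FET3, the ferroxidase of iron uptake, had 2.12, 1.41 and 1.69, while its ORF had a log2 ratio of 0.14. CCT8, a subunit of the cytosolic chaperonin, had 5.16 in WT, 3.46 in *rrp6Δ* and 3.12 in *rtt109Δ*. In CTR1, PHO80 and FET3 the *rtt109Δ* track lay between the others, and in PRY2 and CCT8 it was the lowest.

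Next were CLD1, a cardiolipin phospholipase (-0.57), FAR1, the inhibitor of the cyclin-dependent kinase in mating (-0.55), PRP11, a splicing factor (-0.54), TMA64 (-0.53) and HHO1, the linker histone (-0.52). Of these 10 genes, 9 have a tandem neighbour. Tandem neighbours are the more frequent at wide gaps, which the search favours. At gaps from 300 to under 500 bp there were 960 tandem and 552 convergent genes, and at 500 bp or more 970 and 428. The neighbours of all 215 genes were not counted.

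Gene families were described by their medians, beside the 0.0081 of all ORFs. The genes of the exosome itself were close to WT. Of 13 genes of the nuclear exosome, RRP6 was the only one over the limit, and the other 12 lay between -0.22 and 0.11 (background 1.82% lower and 0.709% higher). The core subunit RRP45 was lowest with 0.839 in WT and 0.723 in *rrp6Δ*, followed by LRP1, the partner protein of Rrp6, with 1.33 and 1.15. MPP6, the cofactor that binds the nuclear exosome, had 1.86 and 1.74. RRP46 (log2 ratio -0.069), RRP40 (-0.059), CSL4 (-0.023), RRP4 (0.033), SKI6 (0.034), RRP43 (0.053) and MTR3 (0.058) are the other ring and cap subunits named, and RRP42 was highest with 0.964 and 1.04. DIS3, the processive nuclease of the core, had 0.984 in WT, 1.02 in *rrp6Δ* and 1.13 in *rtt109Δ*.

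None of the 7 measured genes of TRAMP and of the Nrd1-Nab3-Sen1 complex was over the limit in its ORF. The poly(A) polymerase gene PAP2, also called TRF4, had 0.948 in WT and 0.859 in *rrp6Δ*, and NRD1 had 0.817 and 0.763. NAB3 (-0.080), the helicase MTR4 (-0.027), the second poly(A) polymerase TRF5 (0.036), SEN1 (0.041) and the zinc-knuckle protein AIR2 (0.088) followed. In all of these ORFs but PAP2 the log2 ratio of the first of 3 equal parts was lower than that of the last. In NRD1, whose mRNA is shortened by its own protein, the log2 ratios of the 3 parts were -0.39, -0.19 and 0.20, and in SEN1 they were -0.18, 0.014 and 0.29. The medians of the list were -0.18 in the first and 0.15 in the last part. Most other lists also had a lower median in the first part. Ribosome biogenesis genes had -0.082 and 0.049, and proteasome genes -0.14 and -0.042. The lists of glycolysis, of meiosis and of noncoding control went the other way. The rise along the ORF is thus not particular to these genes. TRF5 was the only gene of the list called downstream, with 0.941 in WT, 1.28 in *rrp6Δ* and 1.24 in *rtt109Δ*.

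Factors of cleavage and polyadenylation, which form the ends of most mRNAs, had a median of 0.015 over 20 genes, with none over the limit. Its lowest member was RNA14 (1.56 in WT and 1.41 in *rrp6Δ*) and its highest PTA1 (0.493 and 0.547). The RNAPII subunits had a median of -0.044 over 11 genes and 9 of them were below 0. RPO26 was lowest (-0.11) and RPC10 highest (0.13), while the largest subunit RPO21, the target of the antibody, had 0.775 in WT, 0.777 in *rrp6Δ* and 1.25 in *rtt109Δ*.

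Both cytosolic ribosomal protein genes and translation factors had medians below that of all ORFs. Cytosolic ribosomal protein genes had a median ORF log2 ratio of -0.11 over 133 genes, 103 of which (77.4%) were below 0, beside 47.4% of all ORFs. Over the limit, 4 genes were lower (3.01%) and 1 was higher (0.752%), beside 1.82% and 0.709% of all ORFs. RPS29B was lowest with 0.534 in WT, 0.37 in *rrp6Δ* and 0.41 in *rtt109Δ*, over 3 windows. RPS28B (-0.51), RPS28A (-0.43) and RPL4B (-0.38) were the others called lower, and RPL41A, an ORF with a single window, was the gene called higher (0.702 and 0.98). The first part of these ORFs had a median of -0.23 and the last part -0.056. Upstream of the start the median was -0.17, and downstream of the stop it was -0.077. In *rtt109Δ* the same ORFs had a median of 0.39.

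Translation factors had a median of -0.075 over 37 genes and 29 were below 0. SUI1, the start codon selection factor eIF1, was lowest with 1.16 in WT, 0.854 in *rrp6Δ* and 0.875 in *rtt109Δ*, and TIF3 was highest (0.15). Ribosome biogenesis factors had -0.029 over 90 genes, between NOP10 (-0.46, over 3 windows) and YTM1 (0.29). Mitochondrial ribosomal proteins had 0.025 over 68 genes, between MRPL51 (-0.45) and MRPL19 (0.36). Of the 90 ribosome biogenesis genes 2 (2.22%) were called lower downstream, below the 4.3% of all downstream regions, and TSR1, a factor of the small subunit, was the farther one with 3.82 in WT, 2.41 in *rrp6Δ* and 1.94 in *rtt109Δ*.

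Glycolysis and fermentation genes had a median of -0.055 over 23 genes, and 3 of them (13%) were over the limit lower, beside 1.82% of all ORFs. TDH3, the main glyceraldehyde-3-phosphate dehydrogenase, had 0.702 in WT, 0.497 in *rrp6Δ* and 1.05 in *rtt109Δ*. ADH1, the alcohol dehydrogenase of fermentation, had 0.882, 0.651 and 1.43, and ENO2, an enolase, had 0.634, 0.486 and 0.979. In all 3 genes, picked as lower in *rrp6Δ* than in WT, *rtt109Δ* was the highest track. PYK2, the pyruvate kinase isoform repressed by glucose, was highest of the list in log2 ratio with 0.736 in WT and 0.932 in *rrp6Δ*. Downstream the list had a median of -0.15, and 4 of 23 genes were over the limit lower (4.3% over all downstream regions), namely TDH3, TDH2, PGK1 and PDC1. After subtraction of a background from each track, the direction of this list turned, with a median of 0.29 over the 15 genes left beside 0.15 over all ORFs.

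Other growth genes varied around the median of all ORFs. Amino acid synthesis had a median of -0.034 over 56 genes, and its lowest member ILV5, of branched-chain synthesis, had 0.718 in WT, 0.494 in *rrp6Δ* and 1.39 in *rtt109Δ*. MET10, of sulphite reduction, was highest (0.33). The proteasome had -0.041 over 31 genes, of which 24 were below 0, between PRE6 (-0.37) and RPN6 (0.15). The respiratory chain and ATP synthase had -0.014 over 38 genes, between ATP15 (-0.51, over 4 windows) and COX5A (0.21). Heat shock and chaperone genes had -0.023 over 29 genes, between SIS1, a cochaperone (-0.35), and HSP32 (0.50). After the same subtraction heat shock genes stood above the median of all ORFs and the respiratory chain at it.

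The 11 histone genes had an ORF median of -0.0025, with none over the limit, between the H4 gene HHF2 (-0.24) and the H2A gene HTA2 (0.29). Downstream their median was -0.17 and 3 of 11 were over the limit lower (4.3% over all downstream regions). These were HHO1, with 2.76 in WT, 1.93 in *rrp6Δ* and 1.5 in *rtt109Δ*, CSE4, the centromeric histone gene, with 1.41, 1.07 and 1.08, and HHT1, an H3 gene, with 1.19, 0.903 and 1.26. The mRNAs of the main histones carry poly(A) tails in yeast, as other mRNAs do.

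Meiosis and sporulation genes had a median of 0.065 over 55 genes and 15 of them (27.3%) were below 0, beside 47.4% of all ORFs. SPS4 was highest with 0.957 in WT, 1.26 in *rrp6Δ* and 0.773 in *rtt109Δ*, and MND1, a recombination factor, was lowest (-0.23). Over the 21 genes of the galactose and phosphate regulons the median was -0.042, between PHO84 (-0.33) and GAL4 (0.49).

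Genes that noncoding or premature transcription is known to control were considered one by one. IMD2, the GTP-regulated IMP dehydrogenase gene, was the only one of 15 over the limit higher (6.67%, beside 0.709% of all ORFs). It had 0.723 in WT, 0.955 in *rrp6Δ* and 0.867 in *rtt109Δ*, and its 3 parts had log2 ratios of 0.25, 0.28 and 0.62. IMD2 lies within 25 kb of a chromosome end, where 5.37% of ORFs were over the limit higher. The other genes with such start site switching in pyrimidine or purine synthesis had 0.17 (URA2), 0.14 (ADE12) and -0.018 (URA8). HRP1, whose transcription is attenuated by Nrd1, had 0.10.

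PHO84, a phosphate transporter gene with antisense RNA that is stable without Rrp6, had 1.05 in WT, 0.839 in *rrp6Δ* and 1.47 in *rtt109Δ*. YNCM0001W, the annotated antisense RNA over PHO84, had 1.18, 0.979 and 1.55. The tracks have no strand, so sense and antisense polymerase cannot be told apart. SER3, which the upstream RNA SRG1 represses, had 1.05 in WT and 1.02 in *rrp6Δ*, and SRG1 itself had 1.14 and 1.17. GAL10 had 1.00 and 1.14 and GAL1 had 1.04 and 1.04. PHO5 (-0.14), TIS11 (-0.23), IME1 (-0.10) and IME4 (0.0091) were within the limit, and ADH1 is described above.

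**Figure D3:**
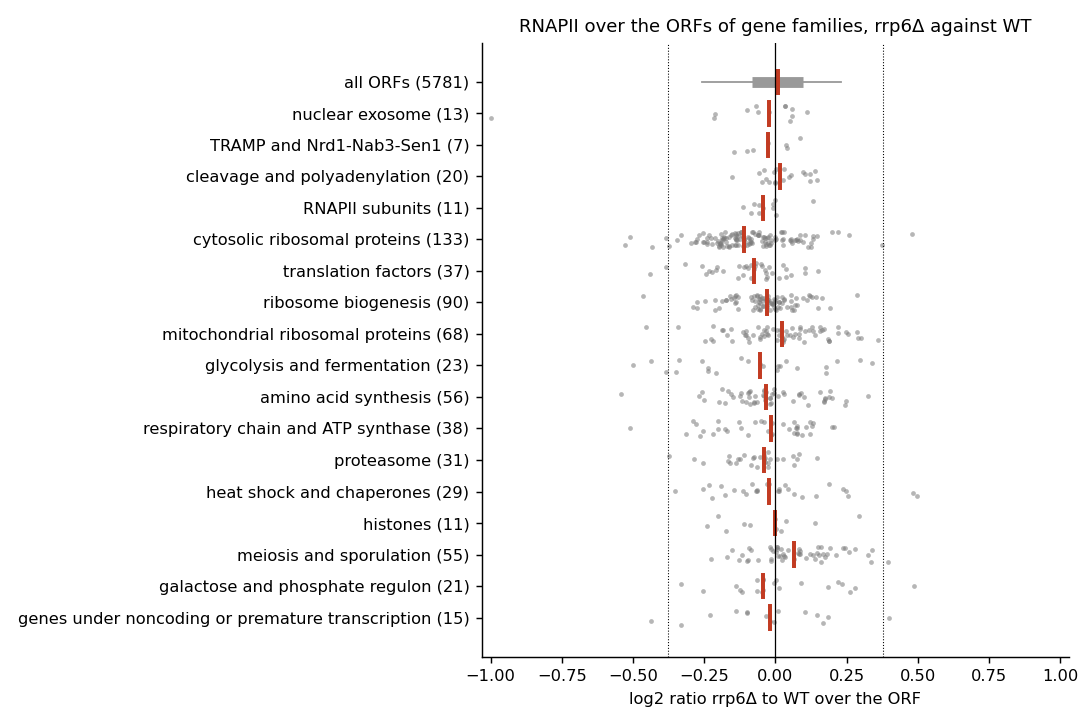
Log2 ratio of *rrp6Δ* to WT over the ORF (horizontal axis) for each gene of 17 families (points, with the number of genes in brackets), the median of each (red bars) and, for all ORFs, the middle 50% and 90% (grey bars); dotted lines mark 1.3-fold, and RRP6 (-3.10) is drawn at -1. Cytosolic ribosomal protein genes have the lowest family median (-0.11) and meiosis genes the highest (0.065).

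The study formed 2 groups of ORFs from RNA arrays of other samples. Group A was raised in *rrp6Δ* and lower again in the *rtt109Δ rrp6Δ* double mutant, and group B was lowered in *rrp6Δ* and higher again in the double mutant. The 715 measured genes of group A, of 757 names, had a median ORF log2 ratio of -0.034, with 443 (62%) below 0. Over the limit, 14 (1.96%) were lower, near the 1.82% of all ORFs, and 1 (0.14%) was higher, below the 0.709% of all ORFs. The group holds 83 of the 90 ribosome biogenesis genes and 69 of the 138 cytosolic ribosomal protein genes. Its lowest member was HTC1, with 0.565 in WT and 0.335 in *rrp6Δ*, and the gene called higher was YNR064C, with 1.3 and 1.7. The 241 measured genes of group B, of 255 names, had a median of 0.041, with 1 over the limit lower, and 91 (37.8%) were below 0. That gene was YAT1, of carnitine metabolism, with 0.488 in WT, 0.371 in *rrp6Δ* and 0.775 in *rtt109Δ*. Downstream, group A had -0.044, with 21 regions lower (2.94%) and 7 higher (0.98%), and group B had -0.083, with 16 lower (6.64%) and 3 higher (1.24%), beside 4.3% and 1.58% of all downstream regions.

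Among noncoding RNA genes, those of tRNAs lay below WT in *rrp6Δ*. These short genes are transcribed by RNA polymerase III from promoters inside them. The 264 measured tRNA genes, of 275 annotated, had a median ratio of 0.852 in *rrp6Δ*, against 1.08 in WT and 1.28 in *rtt109Δ*. Their median log2 ratio was -0.36 in *rrp6Δ*, and the middle 50% lay between -0.55 and -0.18. Of the 264 genes 228 were below 0, as were 52.1% of all single windows and 62.4% of windows between genes. Over the limit, 129 were lower and 2 were higher. The share lower was 48.9%, beside 13.8% of all single windows, as these genes hold 1 to 3 windows. Of windows between genes 18.8% were lower, and of those with a WT ratio of 1 or less 26.1% were. In 222 of the 264 genes *rrp6Δ* was the lowest of the 3 tracks, as in 34.2% of all windows. Within these same combined tracks every chromosome had a tRNA median below 0, from -0.55 to -0.17.

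The difference was narrow. In the window at the centre of the gene the median was -0.42 and 56.8% of genes were over the limit lower. At 50 bp before the centre it was -0.32, at 50 bp after it -0.051, and at 100 bp on either side it was -0.059 and 0.040. The 300 bp downstream had a median of 0.0026, with 10 genes lower and 10 higher of 263, beside 3.73% lower and 3.58% higher among stretches of 6 windows along the genome. The centre is a local minimum of the signal, with mean ratios of 1.08 in WT and 0.854 in *rrp6Δ* between means at 100 bp before it of 2.25 and 2.19. The difference was found at every WT level. In the 88 tRNA genes with the lowest WT ratios the median was -0.41, in the 88 next -0.39 and in the 88 with the highest -0.30. The middle 50% of the 3 sets overlapped.

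**Figure D4:**
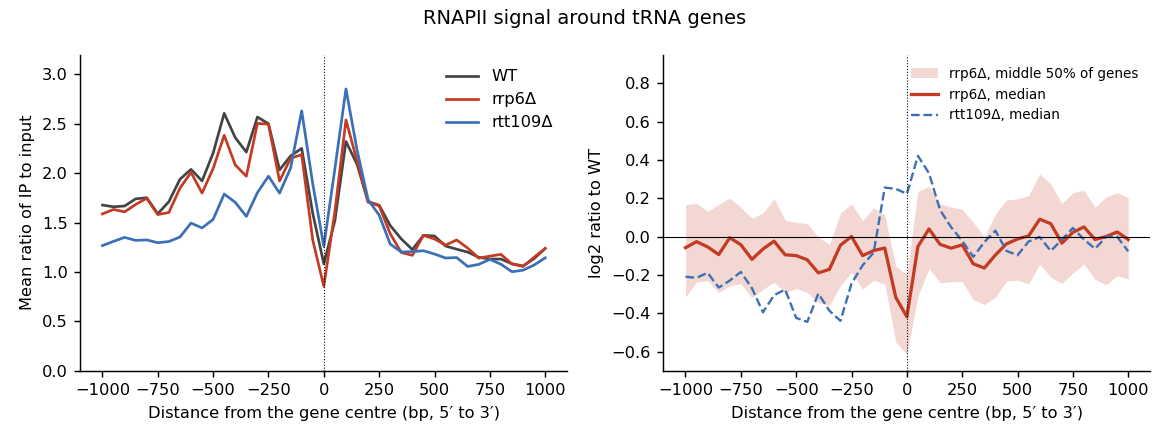
Mean ratio of IP to input (left) and log2 ratio to WT (right; band, middle 50% of genes for *rrp6Δ*) by distance in bp from the centre of tRNA genes, in the direction of transcription. The *rrp6Δ* median is -0.42 at the centre, -0.32 at 50 bp before it and 0.040 at 100 bp after it, and *rtt109Δ* is above WT at the centre.

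Other genes of RNA polymerase III were then looked up, a choice made after the tRNA values were seen. SCR1, the RNA of the signal recognition particle, had 1.05 in WT, 0.702 in *rrp6Δ* and 1.42 in *rtt109Δ* over 11 windows. RPR1, the RNA of RNase P, had 0.82, 0.57 and 1.04 over 7 windows. With the RNA genes of RNase MRP and telomerase, these 2 genes were grouped here as a class of 4 with a median log2 ratio of -0.39, all below 0. The annotation lists the 4 as separate types, and the grouping was not made by polymerase. ZOD1, a locus bound by the polymerase III machinery, had 0.927, 0.415 and 0.853 in its single window. In SCR1 and RPR1 the order of the tracks was that of tRNA genes, with *rrp6Δ* lowest and *rtt109Δ* highest. RNA170 (-0.18), the snoRNA gene SNR52 (-0.17) and the U6 gene SNR6 (-0.039) were within the limit but had the same order. In ZOD1 *rrp6Δ* was lowest and WT highest. The order is not particular to these genes. Medians of the 75 snoRNA genes described below were 1.194 in *rrp6Δ*, 1.296 in WT and 1.526 in *rtt109Δ*. In 52 of the 75 *rrp6Δ* was the lowest track. The 6 copies of the 5S gene had log2 ratios from -0.43 to 0.28. They lie in the ribosomal DNA repeat, where reads of near-identical copies cannot be assigned.

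The 75 measured snoRNA genes, whose RNAs guide the modification of ribosomal RNA and whose ends Rrp6 trims, had a median of -0.10 over the gene, with 8 lower (10.7%) and 1 higher (1.33%). These shares lie below the 13.8% and 11% of single windows, while 3.73% and 3.58% of stretches of 6 windows are called, and the genes hold 1 to 20 windows. The 67 that lie outside ORFs had -0.086, and the 8 inside the span of an ORF had -0.18 and were all below 0. SNR65 was lowest with 1.89 in WT, 1.04 in *rrp6Δ* and 1.82 in *rtt109Δ*, then SNR33 with 1.58, 0.959 and 1.43, and SNR62 with 3.98, 2.62 and 4.48. SNR55 was highest with 0.743, 1.00 and 1.10. These genes hold 2 or 3 windows each.

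Transcription of most snoRNA genes is ended by Nrd1, Nab3 and Sen1, so the 300 bp after them bear on termination. The downstream median of all 75 genes was -0.015, with 2 lower and 0 higher over the limit, below the 3.73% and 3.58% of stretches of 6 windows. The 67 genes outside ORFs had the same median and counts. The 8 inside the span of an ORF, SNR38 and SNR59 among them, had -0.036. Their 300 bp begin within that ORF and do not bear on the end of a snoRNA transcript. The largest differences downward were at SNR48 (0.781 in WT and 0.518 in *rrp6Δ*) and SNR46 (2.03 and 1.54), the 2 genes over the limit. They were followed by SNR3 (-0.38), SNR38 (-0.33), SNR45 and SNR62 (-0.30 each), SNR87 (-0.29), SNR66 (-0.22), SNR70 (-0.21) and SNR60 (-0.19). The largest difference upward was at SNR9, with 0.632 in WT, 0.804 in *rrp6Δ* and 0.947 in *rtt109Δ*. Then came SNR65 (0.28), SNR59 (0.24), SNR161, SNR42 (0.20 each), SNR57 (0.19), SNR37 (0.18), SNR81 (0.15) and SNR55 (0.14). SNR13, where read-through into TRS31 is a standard assay of this termination pathway, had 2.02 in WT, 2.25 in *rrp6Δ* and 2.44 in *rtt109Δ* downstream, a log2 ratio of 0.15.

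**Figure D5:**
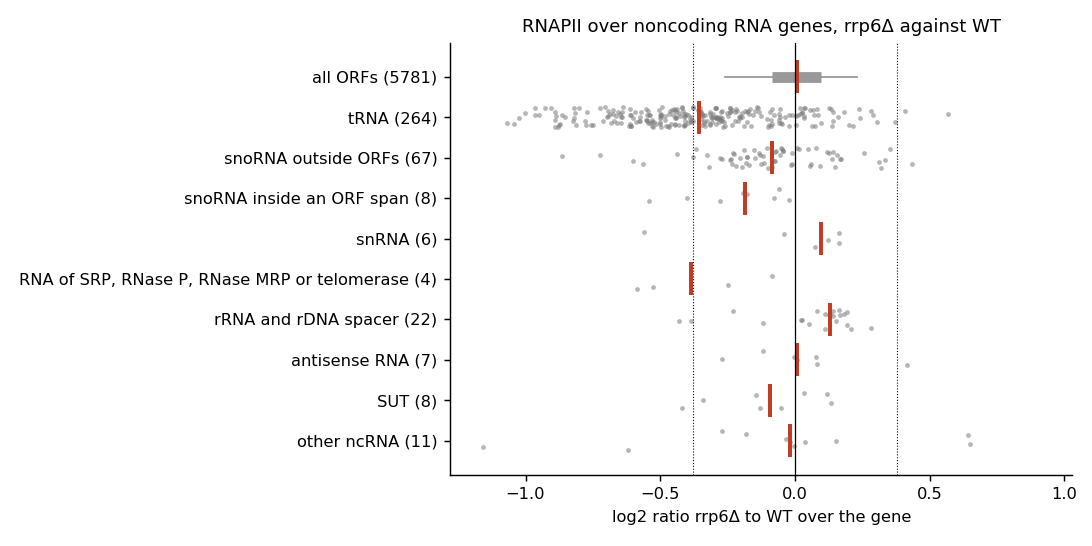
Log2 ratio of *rrp6Δ* to WT over the gene (horizontal axis) for each noncoding RNA gene by class (points, with the number of genes in brackets), the median of each class (red bars) and, for all ORFs, the middle 50% and 90% (grey bars); dotted lines mark 1.3-fold. The tRNA median is -0.36, the snoRNA median outside ORFs is -0.086 and the ORF median is 0.0081.

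The spliceosomal RNA genes were near WT apart from the U4 gene SNR14, with 1.17 in WT, 0.795 in *rrp6Δ* and 0.993 in *rtt109Δ*. LSR1, the U2 gene, had 0.751 and 0.792, and the U1 gene SNR19 had 0.72 and 0.783. The telomerase RNA gene TLC1 had 1.61 and 1.52, and NME1, the RNA of RNase MRP, had 1.34 and 1.13. Of 22 entries for ribosomal RNA and its spacers, which are copies of a repeat, the median was 0.13 and the 2 called lower were 5S copies, RDN5-2 and RDN5-3.

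Stable unannotated transcripts are noncoding RNAPII products of which the annotation names few. The 8 in that class had a median of -0.091. SUT035 was over the limit lower with 3.17 in WT, 2.37 in *rrp6Δ* and 1.40 in *rtt109Δ*, and SUT532 was highest (0.13). The 7 antisense RNAs had a median of 0.0082. Of these, RME2, which opposes IME4, had 0.759 in WT and 0.757 in *rrp6Δ*, RME3 had 1.35 and 1.24, and YNCP0002W, antisense to GAL4, had 1.04, 1.38 and, in *rtt109Δ*, 0.94. IRT1, the RNA upstream of IME1, had 1.23 and 1.21. RUF23 was over the limit lower with 0.818 in WT and 0.533 in *rrp6Δ*. The positions of cryptic unstable transcripts are on another genome build in the study's list and were not analysed here.

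Changes outside genes were sought as runs of at least 5 neighbouring windows over 1.3-fold in the same direction. There were 526 runs lower and 331 runs higher in *rrp6Δ*. Of the windows in lower runs 57.4% lay between genes, and of those in higher runs 4.62% did, against 25.5% of all windows. Higher runs thus lay almost wholly in ORFs (92.5% of their windows, against 73.6% of all windows). The median lower run had 0.866 in WT, 0.555 in *rrp6Δ* and 0.896 in *rtt109Δ*, and the median higher run had 0.919, 1.39 and 0.981. Windows between genes had a median log2 ratio of -0.099 and windows in ORFs 0.012.

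The longest lower run, of 46 windows, was RRP6. The next was at YKR041W on chromosome XI (518151 to 519400), 24 windows with 0.58 in WT, 0.319 in *rrp6Δ* and 0.592 in *rtt109Δ*. A run of 22 windows on chromosome XI (614451 to 615600) touched no gene and had 0.945, 0.605 and 0.954. The run over SHR5 on chromosome XV (109101 to 110250) held 22 windows with 0.812, 0.442 and 0.815. At each of these 3 sites the *rtt109Δ* value was close to that of WT. Runs of 17 to 21 windows lay mostly beside PUT4, a proline permease gene (0.997, 0.567 and 0.916), over UTR5 and HYP2, the gene of translation factor eIF5A (0.861, 0.517 and 1.01), over SCS3 (0.599, 0.267 and 0.441), in a region of chromosome XV without a gene (978351 to 979350; 0.693, 0.411 and 0.626) and before BAP3, an amino acid permease gene (0.915, 0.58 and 1.03).

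Several of the longest higher runs lay in repeats. The longest, of 30 windows on chromosome VIII (213051 to 214600), covered part of the CUP1 array, with 0.895 in WT, 1.51 in *rrp6Δ* and 0.57 in *rtt109Δ*. CUP1 encodes a metallothionein that binds copper, and the annotation holds the genes CUP1-1 and CUP1-2 with the noncoding RUF5-1 and RUF5-2. RUF5-1 had 0.717 in WT, 1.12 in *rrp6Δ* and 0.546 in *rtt109Δ*, and RUF5-2 had 0.758, 1.19 and 0.538. CUP1-1 had 0.398, 0.582 and 0.283, and YHR054C, between the copies, had 0.746, 1.31 and 0.478, the highest log2 ratio of all ORFs (0.81).

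The copies are near identical and their reads cannot be assigned, so the number of copies and RNAPII per copy cannot be told apart in these ratios. A further run of 20 windows lay in RSC30, of which YHR054C is a partial copy, with log2 ratios of 0.086, 0.057 and 0.80 in its 3 parts. CIC1 before the array and CPR2 after it had -0.25 and -0.13.

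Other long higher runs lay in single genes. TOR2, the kinase of TOR complex 2, held 20 windows with 1.32 in WT, 1.87 in *rrp6Δ* and 1.31 in *rtt109Δ*. REA1, a dynein-like ATPase of ribosome assembly, held 17 with 0.858, 1.34 and 1.08, and BRR2, a spliceosomal helicase, held 14 with 1.11, 1.65 and 1.05. In TOR2 and BRR2 the *rtt109Δ* value was near that of WT. Runs in the flocculin genes FLO5, FLO1 and FLO10, which encode cell wall proteins with internal repeats, had WT ratios of 0.41 to 0.732 and *rrp6Δ* ratios of 0.631 to 1.09. Their *rtt109Δ* ratios were 0.62 to 0.78. The *rtt109Δ* track was above *rrp6Δ* in the FLO1 run and the longer FLO5 run, and below WT in the FLO10 run. A run of 13 windows in GAL4, the galactose activator, had 0.782, 1.36 and 0.75. Over the GAL4 ORF the ratios were 0.942, 1.32 and 0.837, and its 3 parts had log2 ratios of 0.41, 0.32 and 0.75.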

How the data were processed

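RNAPII ChIP-seq was done in 3 genotypes with 2 IP libraries each and 1 input. The authors deposited 1 track per genotype, holding a ratio (IP divided by input) per 100 bp window at steps of 50 bp, the replicates already combined in it. How the replicates were combined and scaled is not given in the sources used here. Per the submitters' processing notes, FastQC, Bowtie2, SAMtools, deepTools and bedtools were used with the sacCer3 build, whose chromosome ends match the tracks. The labels name the antibody 8WG16. Micrococcal nuclease cuts linker DNA, so nucleosome positions can enter these ratios. Depth is unknown, so no counting interval was derived.

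Region values were means of the windows centred in a region, without pseudocount or filter, and log2 ratios of *rrp6Δ* to WT were taken from them. Gene positions came from the RefSeq annotation of R64, strands from systematic names, and ORF spans include introns. No test was made. Gene lists and the genes to name were chosen with earlier results of these data known. Genes named were RRP6 and its neighbours, all members of the exosome, termination and noncoding control lists, the lowest and highest ORF of other lists, the 10 largest differences downstream in each direction for ORFs and snoRNAs, and the 10 longest runs, of which some are not described. Lists of mating-type and marker genes were not used. ORFs far from WT, family members over the limit and noncoding genes named besides these were picked from their values. Alternatives were other scalings, medians over windows, a limit of 1.5-fold, a pseudocount of 0.5, subtraction of the 10th percentile, other regions and filters; the minimum of 10 windows, the central window and level filter for tRNA genes, and all alternatives for runs and chromosome ends were chosen after seeing the data. Scripts were tested on simulated data. Order-statistic 95% intervals of a median, which hold no replicate error, served to grade the alternatives. Software was matplotlib 3.10.9, scipy 1.17.1, pandas 2.3.3, numpy 2.4.6 and Python 3.11.15. No genome sequence was used, so no sequences are printed.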

Additional observations from a re-analysis of the deposited data

How the results depend on the processing

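No paired analysis was possible because the replicates of a genotype are merged in 1 track, and none of them could be omitted in turn. The small ORF median (0.0081) turned to -0.0043 with each track divided by its median ORF value and to -0.0089 with medians over windows, and the downstream median was then -0.057 and -0.064. With medians over windows 208 ORFs were lower and 102 higher, and 523 downstream regions were lower and 169 higher. At 1.5-fold these counts were 35, 1, 53 and 3, with 59 tRNA genes lower and 135 lower and 31 higher runs. A pseudocount of 0.5 gave 19 ORFs lower and 2 higher, 87 downstream regions lower and 27 higher, 55 tRNA genes lower, 83 lower and 49 higher runs, and medians of -0.034 downstream, -0.037 (downstream minus ORF) and -0.23 (tRNA). Subtraction of the 10th percentile, which left 5532 ORFs, moved the ORF median to 0.15, downstream to -0.014, the difference to -0.16 and tRNA to -0.59, with 356 ORFs lower and 1195 higher and 559 downstream regions lower and 457 higher. Under it 14 of the 19 list medians described turned sign to above 0, of which 10 stayed below the 0.15 of all ORFs, among them ribosome biogenesis (0.063), translation factors (0.0018), amino acid synthesis (0.14), the proteasome (0.019) and group A (0.055), and 4 lay above it: glycolysis (0.29), heat shock (0.32), histones (0.16) and the respiratory chain (0.15). ORFs at or above the median level gave a median of 0.026, 16 lower and 16 higher, 0.063 for amino acid synthesis, and no glycolytic gene. ORFs with at least 10 windows gave 0.014, 35 lower and 22 higher. Downstream, 200 bp gave a median of -0.023 and 184 higher, and 500 bp gave -0.031, 136 lower and 55 higher, with differences to the ORF of -0.027 and -0.028. Regions that overlap no gene gave -0.086, 27 higher and a difference of -0.080, and regions at or above the median level gave -0.023, 87 lower, 56 higher and -0.037. The tRNA median was -0.42 in the central window, and -0.28 with 44 lower in genes at or above the median level. Of these 19 lists, 11 stayed on their side of the median of all ORFs under every alternative. The causes were not tested. Unknown depth and the lack of replicate values limit every value.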

Other observations

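ORFs near chromosome ends were looked at after it was seen that 16 of the 41 ORFs higher in *rrp6Δ* lay within 25 kb of an end. These regions hold few genes needed for growth and many gene families, and silencing keeps some of them low. Of the 298 ORFs within 25 kb of an end, 16 (5.37%) were over 1.3-fold higher and 4 were lower, beside 25 (0.456%) higher and 101 lower among the 5483 other ORFs. On the log2 scale *rrp6Δ* had a median of 0.11 relative to WT within 10 kb of an end, 0.032 from 10 to 25 kb and 0.0049 at 50 kb or more. In *rtt109Δ* these medians were 0.070, -0.095 and -0.053, so a higher median within 10 kb is not particular to *rrp6Δ*. The *rrp6Δ* median within 25 kb was above 0 on 14 of 15 chromosomes, with values from -0.047 to 0.19. Over all ORFs of a chromosome it was above 0 on 12 of 15. Without the FLO, PAU and YRF1 genes and chromosome I, the median within 25 kb was 0.045, beside 0.049 with them, and 13 ORFs were higher. With a pseudocount of 0.5 it was 0.036 and 0 of the 16 ORFs stayed over the limit.

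Flocculin genes, which let cells adhere, had ratios above WT in *rrp6Δ* in all 4 measured members, 2 of them over 1.3-fold, from 0.716 in WT and 0.833 in *rrp6Δ* at FLO9 to 0.62 and 0.815 at FLO1. In *rtt109Δ* their median log2 ratio was 0.33. In the HSP31 family, of chaperone-like proteins, HSP32 had 0.787 in WT and 1.11 in *rrp6Δ*, HSP33 had 0.632 and 0.884, SNO4 had 0.869 and 1.11, and HSP31 itself had 0.837 and 0.78. The genes of FIT mannoproteins, which hold iron carriers in the cell wall, had 0.30 (FIT1), 0.15 (FIT2) and 0.43 (FIT3) on the log2 scale. All 8 helicase genes of the Y′ elements at telomeres were above 0, between 0.17 and 0.24, while the 300 bp after them had a median of -0.78. In *rtt109Δ* these 8 ORFs had a median log2 ratio of 0.42. Seripauperin genes, the largest of these families, had a median of 0.14 over 22 genes and 14 were above 0. COS genes had 0.042 over 11 genes and maltose genes 0.084 over 10. Several of these families have members of similar sequence, and how reads that match more than 1 member were treated is not given in the sources used here. The part of read assignment in these values was not tested.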
